A study of Homo sapiens with 6 samples.

Results

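RNA sequencing of TKT-overexpressing and control Huh7 cells was examined for the genes that make, convert and break down sphingolipids and for those that make, destroy, export or sense sphingosine-1-phosphate (S1P). Members were chosen by gene symbol from a list of 44, and 43 of them had a row among the 22077 symbols of the deposited count table. SGPP1 was not analysed here. Each group held 3 libraries, replicates 1 to 3, and the control libraries carry the genotype label wt. What the control cells received is not given in the sources used here. Transketolase, encoded by TKT, is an enzyme of the pentose phosphate pathway. Huh7 is a human hepatocellular carcinoma line, and the labels spell it Hu7. The study's Results name Huh7 for this experiment and its Methods name HCCLM3, another liver cancer line. TKT was introduced on the plasmid pTSB02-GFP-PURO, followed by selection, and whether the selected cells came from 1 clone is not stated. No drug treatment is given for these samples.

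Sphingolipids are membrane lipids built on ceramide. Serine palmitoyltransferase starts the pathway in the endoplasmic reticulum, ceramide synthases attach the second acyl chain, and ceramide is then turned into sphingomyelin by the sphingomyelin synthases or into glucosylceramide by UGCG. Lysosomal hydrolases break complex sphingolipids down to ceramide and then to sphingosine. Sphingosine kinases phosphorylate sphingosine to S1P, which is dephosphorylated, cleaved by the S1P lyase or exported, and outside the cell it acts on a family of G protein-coupled receptors. The liver produces much of the circulating sphingolipid carried on lipoproteins.

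Of the 43 genes, SGMS1, UGCG and S1PR3 were higher in TKT-overexpressing cells and kept that call under every alternative tried, so the sequence upstream of their RefSeq start sites is shown. Each run is 200 bases, read on the gene's strand, and ends 51 bases before the start in NCBI RefSeq (GRCh38.p14). Capitals mark the GC box GGGCGG, searched on both strands, a sequence that Sp1 family factors can bind. The windows are chr10:50624007-50624206 (minus strand) for SGMS1, chr9:111896564-111896763 (plus strand) for UGCG and chr9:88990613-88990812 (plus strand) for S1PR3, for which the first of 2 RefSeq starts was used. All lie outside the exons of GENCODE 29, but the SGMS1 window lies inside the gene as GENCODE 29 draws it, downstream of that annotation's start.
SGMS1: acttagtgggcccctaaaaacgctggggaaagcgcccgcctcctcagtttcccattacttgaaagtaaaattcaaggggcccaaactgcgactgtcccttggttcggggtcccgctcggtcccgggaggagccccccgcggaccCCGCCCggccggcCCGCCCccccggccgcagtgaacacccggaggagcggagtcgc
UGCG: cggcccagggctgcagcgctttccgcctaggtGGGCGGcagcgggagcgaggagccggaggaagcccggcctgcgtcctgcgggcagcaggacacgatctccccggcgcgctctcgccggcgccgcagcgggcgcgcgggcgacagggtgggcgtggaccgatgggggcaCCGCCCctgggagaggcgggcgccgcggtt
S1PR3: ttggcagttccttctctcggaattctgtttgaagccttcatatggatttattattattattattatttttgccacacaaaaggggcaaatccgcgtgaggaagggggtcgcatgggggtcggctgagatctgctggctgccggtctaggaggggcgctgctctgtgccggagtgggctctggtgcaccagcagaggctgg
SGMS1 and UGCG each hold 2 GC boxes and S1PR3 holds none. G and C make up 67.5% of the SGMS1 window, 79% of that of UGCG and 53.5% of that of S1PR3. Among 27305 genes with such a window, 38.9% had a GC box, against 27 of the 33 members with one. The median GC content was 57.5% over all windows and 68.5% over the 47 windows of members. The members are protein-coding in GENCODE 29, but whether all 27305 genes are was not checked, so these comparisons may be unlike. The E-box CACGTG, a binding sequence of MYC with MAX, stood in 5.56% of all genes and in 1 member, NEU1. TGANTCA, the AP-1 sequence, stood in 6.52% of all genes and in 4 members (ASAH2, SGMS2, SGPP2 and SPHK1). GGAATG, the TEAD sequence, stood in 11.8% of all genes and in SPHK1 and SPHK2. All motifs were searched on both strands, and none overlapped another in the 3 windows shown.

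The libraries held between 30148788 and 37096156 counts, and the members took between 0.173% and 0.177% of them. The share of TKT itself was 0.939% to 0.953% in the overexpressing libraries and 0.0473% to 0.0511% in the controls, a log2 fold change of 4.26 (SE 0.04, adjusted p = 1.15e-25, edgeR). The counts do not separate introduced from endogenous TKT. Of 10 hepatocyte and liver tumour markers, ALB and AFP had a mean of 2321 and 2641 FPKM (fragments scaled by gene length and library size), while APOB had at most 6 counts in any library. How reads from the APOB locus were counted was not tested, so this count may not reflect its expression. Among the 9 tested, FGB was higher (log2 fold change 0.50, adjusted p = 8.85e-10) and HNF4A lower (log2 fold change -0.15, adjusted p = 0.0072). Of 10 fibroblast, endothelial and immune markers, 6 had a row and VWF and CD3E had at most 2 counts. The summed level of these 6 was 6.51 to 7.38 FPKM on overexpression and 6.99 to 8.35 FPKM in control cells, with PECAM1 at 472 to 717 counts and CD14 at 213 to 290 counts. No marker of the 4 tested was called by edgeR (0 had an unadjusted p under 0.05). No library stood apart by its total.

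Most sphingolipid genes differed little between the groups. Of the 39 tested, 3 were higher (SGMS1, UGCG and S1PR3), 4 were lower (SMPD2, GALC, ARSA and SPHK1) and 32 were not called at an adjusted p under 0.05 in edgeR's quasi-likelihood test. The number lower fell to 0 without TKT-overexpressing replicate 1 or 3 and to 1 without control replicate 1 or 3, while the 3 higher genes stayed called in each case. The called share was 17.9% of tested members, against 10.6% of all 14162 tested genes (5.69% higher and 4.94% lower). Log2 fold changes (TKT overexpression minus control) ran from -0.48 to 1.63 with a median of -0.04, beside a median of 8e-04 over all tested genes. The median absolute log2 fold change was 0.12 for members and 0.12 for all tested genes. Of the members, 18 had positive and 21 negative values. The groups did not overlap for 15 tested members (8 higher and 7 lower), and did not overlap for 28.0% of all tested genes. The study's threshold asks, beside the adjusted p, for a log2 fold change beyond 1 in size, and there edgeR called 0 members (15 had an unadjusted p under 0.05) and 0.727% of all tested genes. DESeq2 and limma also called 0 members there, of 34 and 32 with an adjusted p. Neither gave one to S1PR1, the only tested member with a change of that size in edgeR. S1PR1 was called there with no filter on low counts and without control replicate 2. The share of all tested genes with an unadjusted p under 0.05 was not counted. It is at least the 10.6% called after adjustment, so such counts here and below lack a full comparison.

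The genes of ceramide synthesis were not called in either direction. The 11 tested members had log2 fold changes between -0.25 and 0.30 with a median of -0.04, and 2 of them had an unadjusted p under 0.05 (edgeR). DESeq2 and limma called 0 of them as well. The branch covers the serine palmitoyltransferase subunits (SPTLC1, SPTLC2, SPTLC3 and the small subunit SPTSSA), the reductase KDSR, the ceramide synthases CERS1, CERS2, CERS4, CERS5 and CERS6, and the desaturase DEGS1. Summed over the branch, the level was 113 to 116 FPKM on overexpression and 109 to 115 FPKM in control cells, and these ranges overlapped.

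CERS2, the synthase that prefers very long acyl chains and is abundant in liver, had the highest level of the branch. It had 202, 211 and 200 CPM (counts divided by library size, corrected with TMM factors) in TKT-overexpressing replicates 1, 2 and 3, and 180, 189 and 195 CPM in control replicates 1, 2 and 3. Every TKT-overexpressing library exceeded every control library, by a small margin. The log2 fold change was 0.12 (SE 0.04, 95% interval 0.03 to 0.21, adjusted p = 0.0673, edgeR). It passed the threshold with upper quartile factors (0.0447), with library totals alone (0.0484) and with the filter of 10 counts in every library (0.0497), and in none of the other 12 fits.

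SPTLC3, a catalytic subunit of serine palmitoyltransferase, was the other ceramide synthesis gene whose groups did not overlap. It had 23.5, 22.0 and 21.7 CPM on overexpression and 24.9, 29.4 and 25.9 CPM in control cells. Its log2 fold change was -0.25 (SE 0.08, adjusted p = 0.0550, edgeR), and it passed the threshold in 1 of 15 fits, with no filter on low counts (0.0404). SPTLC1, the subunit shared by all forms of the enzyme, had a log2 fold change of 0.04 (95% interval -0.07 to 0.15). The interval of DEGS1, which makes ceramide from dihydroceramide, was -0.15 to 0.08. That of CERS1 was wider, from -0.07 to 0.67, at 109 to 196 counts per library.

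In the sphingomyelin branch, SGMS1, which makes sphingomyelin from ceramide in the Golgi, was 1.31-fold higher in TKT-overexpressing cells, and SMPD2, a neutral sphingomyelinase that releases ceramide, was 0.718-fold the control level. The other 3 tested genes were not called. The median over the 5 was a log2 fold change of -0.06, which was the value of SMPD3, a gene with 8 to 16 counts. The sign of the median was not stable. It was 0.2166 without control replicate 3, again the value of SMPD3. With the filter of 10 counts in every library, which left SMPD3 out, it was 0.0071. Without TKT-overexpressing replicate 2 it was -0.1389.

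SGMS1 lies on chromosome 10 from 50305586 to 50625163 on the minus strand (GENCODE 29, GRCh38). It had 33.1, 32.0 and 26.8 CPM on overexpression and 22.5, 23.4 and 24.4 CPM in control cells. Replicate 3 was the lowest TKT-overexpressing library and still above the highest control. The means were 30.6 ± 3.38 and 23.5 ± 0.953 CPM (SD, n = 3 each), and the log2 fold change was 0.38 (SE 0.08, 95% interval 0.21 to 0.56, adjusted p = 0.00409, edgeR). With each library left out in turn it stayed called, at 0.32 to 0.47.

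SMPD2 lies on chromosome 6 from 109440763 to 109443919 on the plus strand. Its values were 5.80, 8.14 and 6.45 CPM on overexpression and 9.61, 9.32 and 9.42 CPM in control cells. The control libraries lay close together, and all TKT-overexpressing libraries lay below them. The means were 6.80 ± 1.21 and 9.45 ± 0.15 CPM (SD, n = 3 each), with a fitted log2 fold change of -0.48 (SE 0.14, adjusted p = 0.0292, edgeR). The call was lost without TKT-overexpressing replicate 1 (log2 fold change -0.38, adjusted p = 0.158), replicate 3 (adjusted p = 0.0995), control replicate 1 (0.094) or control replicate 3 (0.07).

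The acid sphingomyelinase SMPD1, the lysosomal enzyme, had the highest level of this branch, at 9.76 FPKM. It had 28.0, 24.6 and 24.9 CPM on overexpression and 27.5, 27.3 and 28.9 CPM in control cells, so the groups overlapped. Its log2 fold change was -0.11 (95% interval -0.27 to 0.05, adjusted p = 0.417, edgeR). SGMS2, the sphingomyelin synthase found also at the plasma membrane, had 22 to 38 counts per library and a log2 fold change of 0.12 with an interval of -0.67 to 0.91. SMPD3, a further neutral sphingomyelinase, had 8 to 16 counts and an interval of -1.24 to 1.12, so differences within that interval remained possible.

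The genes that break ceramide down or phosphorylate it were not called: edgeR called 0 of 5, and 0 had an unadjusted p under 0.05. DESeq2 and limma also called 0, but DESeq2 gave ACER2 no adjusted p and limma did not test ASAH2 or ACER2. The median log2 fold change of the 5 was 0.17. It was -0.0519 in limma on log2(FPKM + 1), where ASAH2 and ACER2 were missing, and 0.0388 without TKT-overexpressing replicate 2. The ceramide kinase CERK had the highest level, at 18.2 FPKM, with 86.9, 89.8 and 87.6 CPM on overexpression and 93.3, 96.3 and 85.9 CPM in control cells. The groups overlapped through control replicate 3, and the log2 fold change was -0.06 (95% interval -0.17 to 0.05). The lysosomal acid ceramidase ASAH1 had a log2 fold change of -0.06 (interval -0.15 to 0.02) and the alkaline ceramidase ACER3 one of 0.17 (interval -0.04 to 0.37), each with groups that did not overlap. ASAH2, the neutral ceramidase, and ACER2, an alkaline ceramidase of the Golgi, had log2 fold changes of 0.21 and 0.23 with intervals that spanned 0.

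UGCG, glucosylceramide synthase, which makes the first step toward most glycosphingolipids, was 1.34-fold higher in TKT-overexpressing cells. It lies on chromosome 9 from 111896766 to 111935369 on the plus strand. The libraries had 29.8, 29.9 and 31.4 CPM on overexpression and 20.0, 24.5 and 23.3 CPM in control cells. The TKT-overexpressing libraries were tightly grouped and all above the controls. The means were 30.3 ± 0.926 and 22.6 ± 2.34 CPM (SD, n = 3 each), and the log2 fold change was 0.42 (SE 0.08, 95% interval 0.25 to 0.59, adjusted p = 0.0015, edgeR). Leaving out each library gave 0.34 to 0.49, always called. In levels per length, UGCG had 5.78 FPKM over all libraries.

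B4GALT6, a lactosylceramide synthase that acts on the product of UGCG, had the opposite sign. It had 5.69, 5.25 and 5.66 CPM on overexpression and 6.75, 6.72 and 6.5 CPM in control cells, with no overlap. Its log2 fold change of -0.27 (95% interval -0.56 to 0.03, adjusted p = 0.273, edgeR) did not pass the test.

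In glycolipid breakdown, GALC and ARSA were lower in TKT-overexpressing cells, GBA2, GLA, GLB1 and NEU3 were not called, and no gene was called higher. GALC is the lysosomal galactosylceramidase and ARSA is arylsulfatase A, which removes sulfate from sulfatide. The median log2 fold change of the 6 tested genes was -0.10. The summed level was 118.8 to 119.1 FPKM on overexpression and 122 to 123 FPKM in control cells, and these ranges did not overlap.

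GALC lies on chromosome 14 from 87837820 to 87993665 on the minus strand. It had 39.0, 43.3 and 37.8 CPM on overexpression and 45.7, 51.1 and 46.5 CPM in control cells. Replicate 2 was the highest library of each group, and the groups did not overlap. The means were 40.1 ± 2.91 and 47.8 ± 2.91 CPM (SD, n = 3 each), which gave a fitted log2 fold change of -0.25 (SE 0.06, adjusted p = 0.0123, edgeR). Without TKT-overexpressing replicate 1 the adjusted p was 0.0756, and without replicate 3 it was 0.076. Limma on log2(FPKM + 1) gave 0.0804.

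ARSA lies on chromosome 22 from 50622754 to 50628173 on the minus strand. It had 24.3, 23.4 and 22.9 CPM on overexpression and 28.9, 26.6 and 29.2 CPM in control cells. All TKT-overexpressing libraries were below the lowest control, replicate 2. The means were 23.6 ± 0.730 and 28.2 ± 1.42 CPM (SD, n = 3 each), which gave a fitted log2 fold change of -0.26 (SE 0.08, adjusted p = 0.0296, edgeR). The call held without control replicate 2 (0.0212). It was lost without TKT-overexpressing replicate 1 (0.0611), 2 (0.0772) or 3 (0.088) and without control replicate 1 (0.11) or 3 (0.102).

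GLB1, the lysosomal beta-galactosidase, had the highest level of all members, 50.04 FPKM. It had 209, 222 and 208 CPM on overexpression and 225, 220 and 223 CPM in control cells, and the groups overlapped through replicate 2. Its log2 fold change was -0.07 (95% interval -0.15 to 0.01, adjusted p = 0.312, edgeR). GBA2, the non-lysosomal glucosylceramidase, had 91.3, 90.1 and 91.8 CPM on overexpression and 102, 99.6 and 99.8 CPM in control cells. These groups did not overlap, and the log2 fold change was -0.14 (SE 0.05, adjusted p = 0.0542 in edgeR and 0.0301 in DESeq2). GLA, alpha-galactosidase A, had a log2 fold change of 0.09 (interval 0.01 to 0.17, adjusted p = 0.157), and NEU3, the plasma membrane sialidase, one of 0.11 (interval -0.09 to 0.31).

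Other lysosomal hydrolases and membrane proteins were set beside these enzymes. Of 24 tested, 0 were higher and 2 lower (6 had an unadjusted p under 0.05), with a median log2 fold change of -0.06 and 18 negative values. Thus 8.33% were called, against 10.6% of all tested genes. Those called were the protease CTSD (log2 fold change -0.22, adjusted p = 0.00406) and the beta-glucuronidase GUSB (log2 fold change -0.16, adjusted p = 0.0309). Their summed level was 358 to 363 FPKM on overexpression and 377 to 383 FPKM in control cells.

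**Figure D1:**
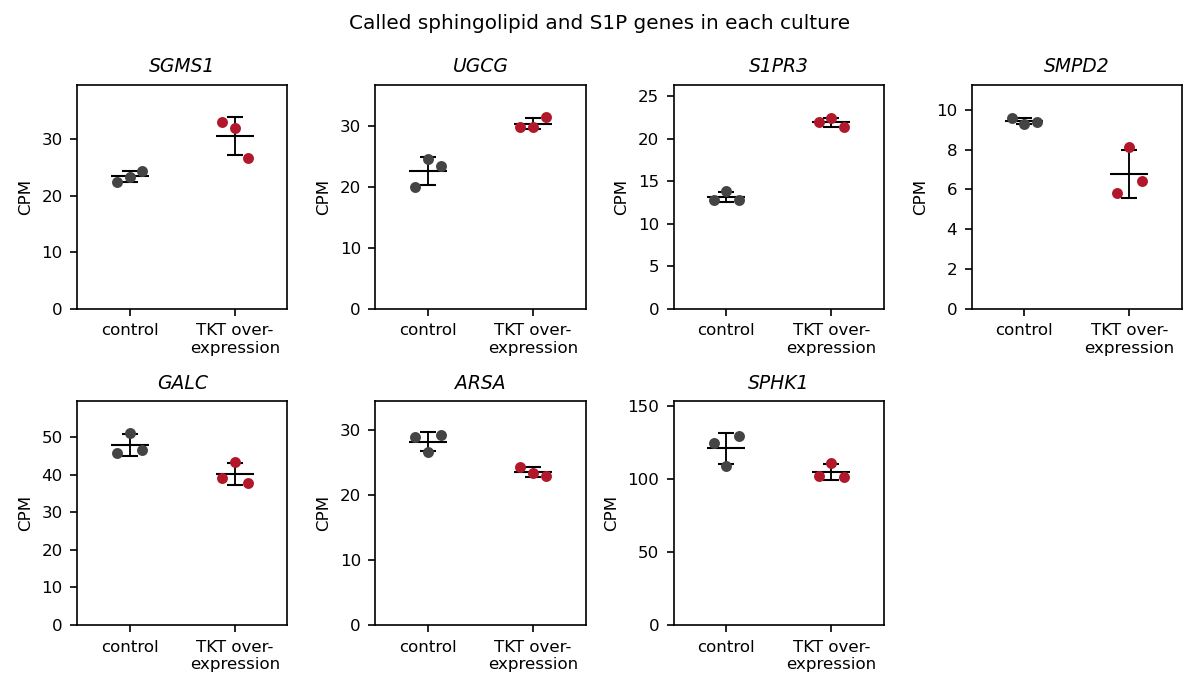
CPM (y axis, from 0) of the 7 called genes in each control (grey) and TKT-overexpressing (red) library, with bars for mean ± SD (n = 3 each). The word culture in the title stands for library. SGMS1, UGCG and S1PR3 are higher and SMPD2, GALC and ARSA lower with no overlap, while for SPHK1 TKT-overexpressing replicate 2 (111 CPM) lies above control replicate 2 (109 CPM).

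In the S1P branch the receptor S1PR3 was 1.67-fold higher and the kinase SPHK1 was 0.867-fold the control level, and the other 8 tested genes were not called. The median log2 fold change was 0.07, and it was -0.0231 with no filter, -0.0119 with 10 counts in every library, -0.032 in DESeq2 and 0.1643 without control replicate 2. Of the 10 genes, 6 had an unadjusted p under 0.05 (edgeR): SPHK1, SGPL1, PLPP3, S1PR1, S1PR2 and S1PR3. How many of all tested genes did was not counted, but 10.6% of them were called even after adjustment.

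SPHK1, the inducible sphingosine kinase, had the highest level of the branch, 25.5 FPKM. It lies on chromosome 17 from 76376584 to 76387860 on the plus strand. Its values were 102, 111 and 102 CPM on overexpression and 125, 109 and 129 CPM in control cells. The groups overlapped, since control replicate 2 lay below TKT-overexpressing replicate 2. The means were 105 ± 5.39 and 121 ± 10.8 CPM (SD, n = 3 each), which gave a fitted log2 fold change of -0.21 (SE 0.06, adjusted p = 0.031, edgeR). The call was lost without TKT-overexpressing replicate 1 (0.127) or 3 (0.125) and without control replicate 1 (0.136) or 3 (0.134). Without control replicate 2 the adjusted p was 0.000845. Limma on log2(FPKM + 1) gave 0.11. PRPSAP1 overlaps SPHK1 over 7938 bases on the opposite strand (1918 to 2573 counts, log2 fold change -0.17, adjusted p = 0.0539), and the strand setting of the counting is not stated.

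The enzymes that remove S1P or lipid phosphates were not called. SGPL1, the S1P lyase of the endoplasmic reticulum, had 25.7, 24.2 and 21.0 CPM on overexpression and 28.6, 29.03 and 25.4 CPM in control cells, a log2 fold change of -0.23 (SE 0.09, adjusted p = 0.102, edgeR). The groups overlapped, because TKT-overexpressing replicate 1 lay above control replicate 3. The level of SPHK1 relative to SGPL1 was 11.7 ± 1.17 on overexpression and 11.5 ± 1.76 in control cells (ratio of FPKM, SD, n = 3 each). PLPP3, a lipid phosphatase that can act on extracellular S1P, had a log2 fold change of 0.20 (interval 0.03 to 0.37, adjusted p = 0.135), and PLPP1, of the same family, one of 0.15 (interval -0.18 to 0.49). SPHK2, the kinase also found in the nucleus and mitochondria, had -0.09 (interval -0.25 to 0.07), and SGPP2, an S1P phosphatase with 46 to 74 counts, had -0.08 (interval -0.67 to 0.51).

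S1PR3, a receptor that couples to several G protein classes, had the smallest p of the members and ranked 84 of 14162 by p. It lies on chromosome 9 from 88990863 to 89005010 on the plus strand. The counts were 815, 690 and 701 on overexpression and 401, 420 and 427 in control cells, or 22.0, 22.4 and 21.3 CPM against 12.8, 13.8 and 12.7 CPM. Both groups were tight and far apart. The means were 21.9 ± 0.532 and 13.1 ± 0.625 CPM (SD, n = 3 each), and the log2 fold change was 0.74 (SE 0.09, 95% interval 0.55 to 0.93, adjusted p = 7.82e-06, edgeR). It stayed called in all 15 alternative fits, at 0.72 to 0.78 with each library left out in turn. On the log2(FPKM + 1) scale, which understates low genes, limma gave 0.41.

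S1PR2 was the most abundant receptor per length, at 4.51 ± 0.291 FPKM on overexpression and 3.81 ± 0.314 FPKM in control cells (SD, n = 3 each). S1PR3 had 1.59 ± 0.0184 and 0.951 ± 0.0537 FPKM. The ratio of S1PR3 to S1PR2 in FPKM was 0.333, 0.381 and 0.349 on overexpression and 0.229, 0.294 and 0.233 in control cells, with no overlap. S1PR2 itself had a log2 fold change of 0.24 (interval 0.03 to 0.45, adjusted p = 0.145, edgeR) with groups that did not overlap. Its gene shares 9854 bases on the same strand with DNMT1, which had 10086 to 12979 counts.

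S1PR1, the receptor best known from endothelium and lymphocytes, had the largest fold change of the 39 tested members, on few counts. It lies on chromosome 1 from 101236865 to 101243713 on the plus strand and had 29, 29 and 22 counts on overexpression and 4, 16 and 4 counts in control cells. Every TKT-overexpressing library exceeded every control library, with control replicate 2 nearest. The log2 fold change was 1.63 (SE 0.56, 95% interval 0.46 to 2.80, adjusted p = 0.0679, edgeR) and was not called. Without control replicate 2 it was 2.66 and was called (adjusted p = 0.0105), and with no filter on low counts the adjusted p was 0.0415. These were the only calls in the 11 alternative fits that tested S1PR1. SPNS2, the S1P exporter, had 55, 24 and 21 counts on overexpression and 22, 53 and 18 in control cells, with a log2 fold change of -0.02 (interval -0.97 to 0.92).

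**Figure D2:**
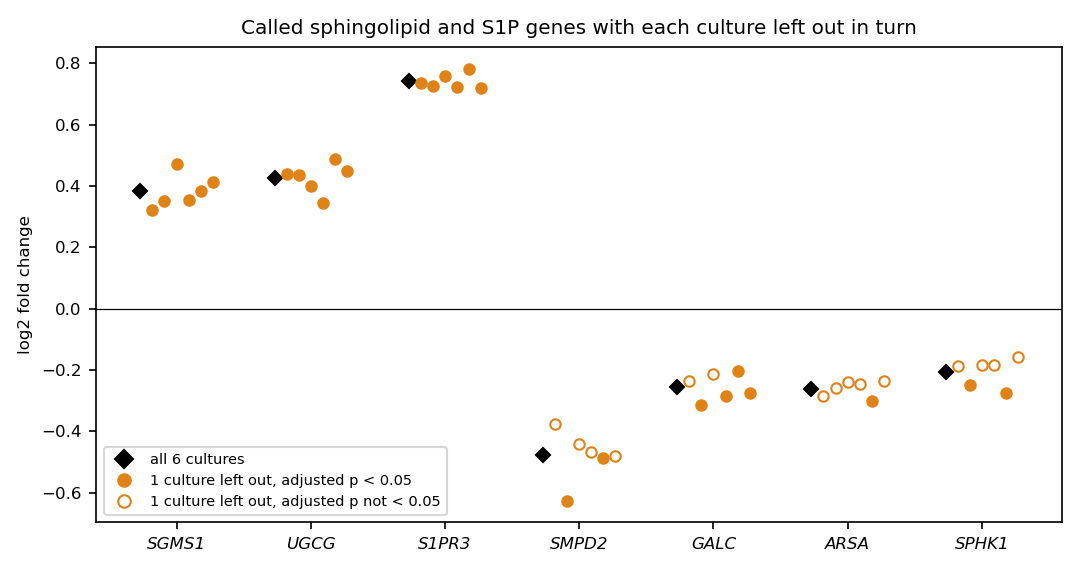
Log2 fold change (y axis) of the 7 called genes with all 6 libraries (black diamonds) and with 1 library left out (orange circles, filled where the adjusted p is under 0.05). The word culture in the title and legend stands for library. SGMS1, UGCG and S1PR3 stay filled throughout, SMPD2 in 2, GALC in 4, ARSA in 1 and SPHK1 in 2 of the 6 cases.

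Levels per length spread widely over the members. GLB1 (50.04 FPKM), CERS2 (42.1 FPKM) and SPHK1 (25.5 FPKM) were the highest of glycolipid breakdown, ceramide synthesis and S1P. CERS2 stood above the next synthase, CERS4, at 43.9 ± 0.805 against 11.5 ± 0.491 FPKM on overexpression and 40.3 ± 1.68 against 12.2 ± 0.477 FPKM in control cells (SD, n = 3 each). Within the palmitoyltransferase, SPTLC3 (2.62 ± 0.107 and 3.12 ± 0.301 FPKM) stood above SPTLC2 (0.703 ± 0.0790 and 0.682 ± 0.0514 FPKM) in every library. The summed level of all members was 333 to 336 FPKM on overexpression and 336 to 341 FPKM in control cells.

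**Figure D3:**
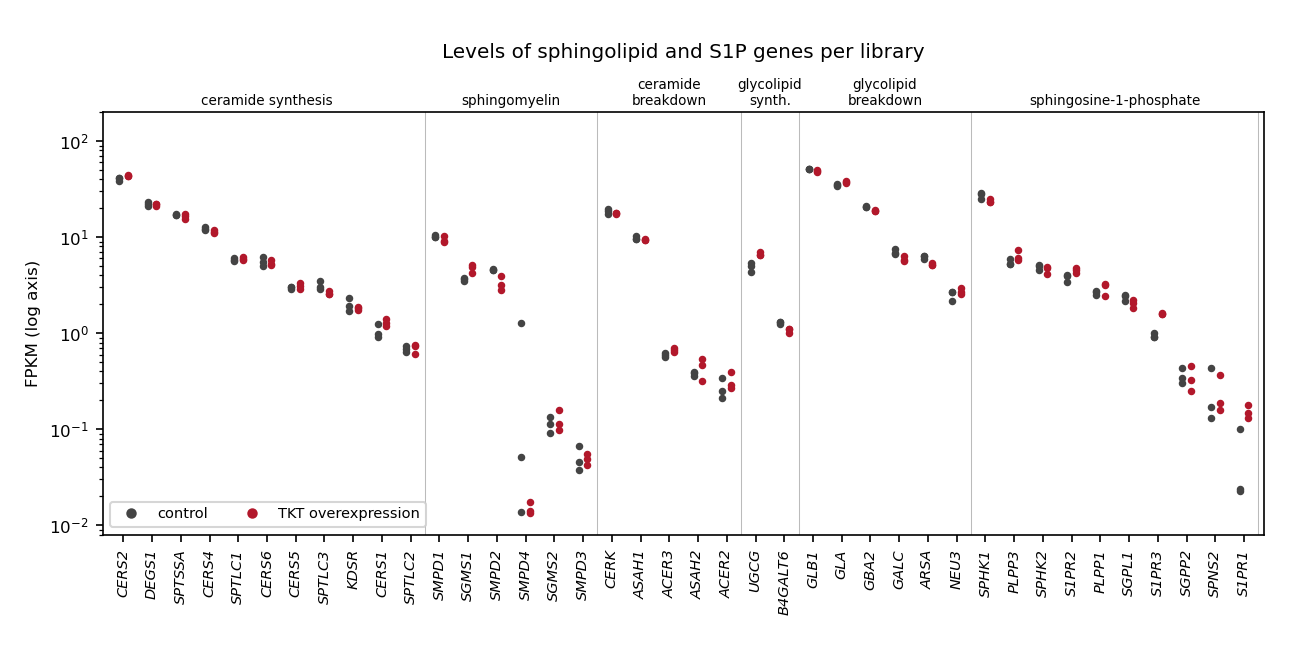
FPKM of each gene (y axis, log) in every control (grey) and TKT-overexpressing (red) library, by branch and in falling order of the mean. GLB1 and CERS2 are near the top, and the 1 grey point of SMPD4 at 1.29 FPKM stands apart, while DEGS2, NEU1 and PLPP2, which had 0 in some library, are left out.

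Of the 43 genes, 4 had too few counts for the test. SMPD4, a neutral sphingomyelinase, had 6, 4 and 4 counts on overexpression and 4, 358 and 16 counts in control cells. Control replicate 2 thus stood far above all the others. DEGS2, which makes phytoceramide, had 6, 0 and 0 counts against 13, 2 and 7. PLPP2, a lipid phosphate phosphatase, had 0, 7 and 11 counts against 14, 8 and 6, and NEU1, the lysosomal sialidase, had 6, 0 and 0 against 0, 5 and 0. A count of 0 in a library allows up to 3 counts, or 0.0809 to 0.0995 CPM by library total.

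NEU1 is used by nearly all cells, so its level was set beside its neighbours. Of 70 protein-coding genes within 500 kb in GENCODE 29, 25 had a row and 21 of those averaged under 10 counts. The share over all rows in the table was 36.1%, but those rows also hold genes that are not protein-coding. Around SMPD4, 4 of 8 neighbours with a row averaged under 10 counts. How reads from these loci were counted was not tested.

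**Figure D4:**
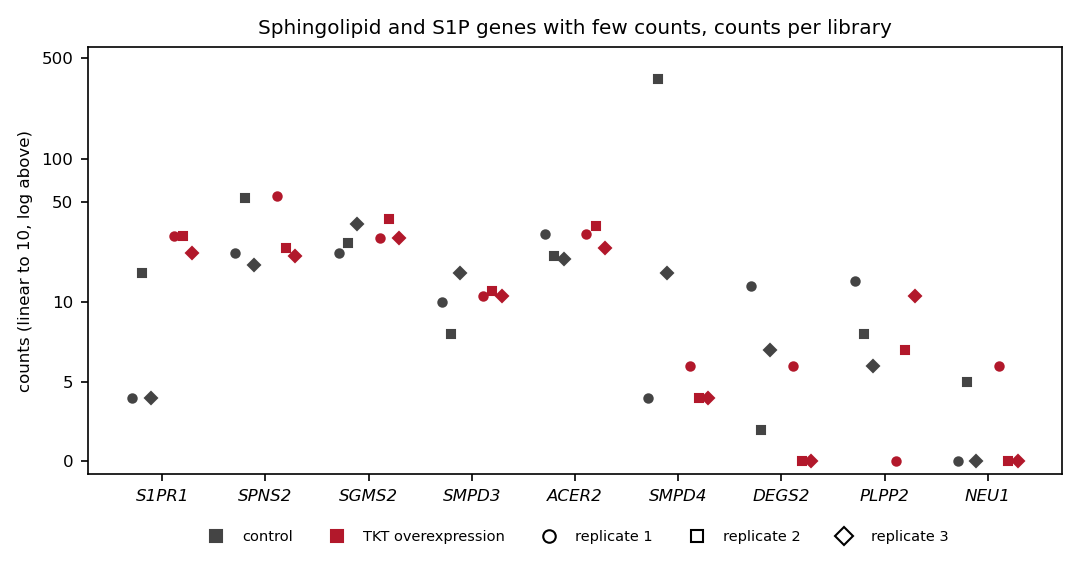
Counts (y axis, linear to 10 and log above) of 9 genes with few counts in each library, with the group by colour and the replicate by shape. S1PR1 separates by group, whereas control replicate 2 has 358 counts of SMPD4 against at most 16 elsewhere.

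The other genes of sphingolipid metabolism, 41 listed for this work showed 1 call. Of the 31 tested, 0 were higher and 1 lower (6 had an unadjusted p under 0.05), with a median log2 fold change of -0.03. Thus 3.23% were called, against 10.6% of all tested genes. The lower gene was B4GALNT1, which makes the gangliosides GM2 and GD2, with 60.6 ± 2.81 CPM on overexpression and 74.4 ± 4.75 CPM in control cells (SD, n = 3 each) and a log2 fold change of -0.29 (SE 0.06, adjusted p = 0.00165, edgeR).

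The deposited table also assigns genes to pathways. Of the genes it places in Sphingolipid metabolism, 45 were tested, with 2 higher, 5 lower and a median log2 fold change of -0.06. Members made up 34 of these (2 higher and 4 lower). Among the other 11, B4GALNT1 was lower and 0 were higher. The study's own gene set enrichment analysis described sphingolipid metabolism as downregulated. That is another measure than these calls and was not repeated here. Of the genes in Sphingolipid signaling pathway, 100 were tested, with 6 higher, 6 lower and a median log2 fold change of -7e-04. The 76 that were not members included GNA13, KNG1, PPP2R5B and RELA among the higher and AKT2, CTSD, MAPK12 and PLCB3 among the lower. Beside both pathways stand 5.69% higher and 4.94% lower among all 14162 tested genes.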

How the data were processed

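RNA-seq of 3 TKT-overexpressing and 3 control samples of Huh7 cells was analysed. The authors trimmed the reads with fastp 0.22.0, aligned them to hg38 with HISAT2 2.1.0 and deposited raw featureCounts counts per gene symbol. A second deposited table holds FPKM values, used here for levels per length. The annotation, strand and multi-mapping settings are not given in the sources used here. Some members share bases with another gene on the same strand, such as CERS1 with GDF1, SPTSSA with EGLN3 and GLB1 with TMPPE. Whether this affected their counts was not tested. Count columns named TKT1 to TKT3 were taken as the overexpression libraries with the same numbers, and 0 per-sample columns were unused.

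In R 4.3.3, counts were tested with edgeR 4.0.16 (filterByExpr with a minimum count of 10, TMM factors, robust quasi-likelihood, Benjamini-Hochberg over all 14162 tested genes). The common biological coefficient of variation was 0.113. Standard errors are the log2 fold change divided by the square root of F. The labels do not say whether the libraries came from separate cultures, so p-values measure only the spread between these samples. Replicates were not copies: chi-square per degree of freedom was 6.9 to 9.41 within groups and 28.8 to 35.6 between them. Totals of 30148788 to 37096156 counts set the precision, and floors cover counting error only.

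The members and gene lists were chosen with earlier results of these data known. By the rule used, values in every sample were given for the members called, those with an absolute log2 fold change over 1 and the highest FPKM of each branch. Every-sample values of SPTLC3, B4GALT6, GBA2, SGPL1, SPNS2 and the untested members were added after they were seen. From the other lists, up to 3 called genes in each direction were named. Other genes named outside the members were chosen after their values were seen. Alternatives were RLE, upper quartile and no factors, no filter, 10 counts in every library, DESeq2 1.42.0, limma 3.58.1 on log2(FPKM + 1) and log2(FPKM + 0.1) for genes with a mean of at least 0.5 FPKM, the replicate number as a block, and each library left out. The scripts were tested on simulated counts. Upstream windows come from the RefSeq table of GRCh38.p14 and gene coordinates from GENCODE 29. Windows were found for 33 members.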

Additional observations from a re-analysis of the deposited data

How the results depend on the processing

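The calls of SGMS1, UGCG and S1PR3 held in all 15 alternative fits, and no called value changed sign. Among the members that were not called, CERS2 gained a call in 3 fits, S1PR1 in 2, and SPTLC3 (no filter) and GBA2 (DESeq2) in 1 each. Limma on log2(FPKM + 1) and log2(FPKM + 0.1) called 2 and 2 members lower, and 809 and 810 genes in all. At the study's threshold they called 20 and 51 genes, DESeq2 called 63, and the fit with no filter on low counts called 160 genes and 1 member, S1PR1. The study itself reported more differentially expressed genes than any fit here called at that threshold, and the reason was not tested. The replicate block left 1 member lower, with 697 genes called and 67 at the study's threshold. Same-numbered libraries shared only a number (correlations of their deviations -0.00192, -0.0252 and 0.0156). The median log2 fold change moved to -0.0654 (no filter) and -0.0691 (DESeq2) in glycolipid breakdown, and to -0.0231 and -0.032 in S1P. With 10 counts in every library the S1P median was -0.0119 and the sphingomyelin median 0.0071. In ceramide breakdown the median was -0.0519 and -0.0544 with limma. These medians cover other sets of members than the main fit, and those of DESeq2 include members without an adjusted p.

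With each library left out, members called lower numbered 0 to 4 and members called at the study's threshold 0 to 1. All called genes numbered 791 to 1586. Members called lower fell to 0 without TKT-overexpressing replicate 1 or 3 and to 1 without control replicate 1 or 3. The medians ranged from -0.0566 to 0.0125 over all members, from -0.0653 to 0.0249 in ceramide synthesis, from -0.1389 to 0.2166 in sphingomyelin, from 0.0388 to 0.1888 in ceramide breakdown and from 0.0293 to 0.1643 in S1P. The causes were not tested. Depth limits the genes with few counts, S1PR1, SPNS2, SGMS2, SMPD3 and ACER2 among them, whose 95% intervals are wide.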
